A study of Mus musculus with 8 samples.

Results

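The lysosomal proton pump, the cathepsins and the lysosome-associated membrane proteins were described in annulus fibrosus (AF) tissue of *Abcc6*-/- and wild-type mice. Members were the probe sets whose annotated gene symbol named a subunit of the V1 or V0 sector of the pump (with the osteoclast subunit *Atp6v0d2* left aside), a lysosomal cathepsin or a LAMP protein. The rule took 36 probe sets of 36 genes out of the 22206 probe sets tested, of which 19572 carried a gene name. They comprised 13 V1 subunits, 7 V0 subunits, 11 cathepsins, 4 LAMP genes and *Atp6v1fnb*, which fits the symbol pattern as the neighbour gene of *Atp6v1f* and is not a known pump subunit. *Atp6v0c*, the proteolipid that builds most of the rotor ring, and *Ctsd*, the main aspartic protease of lysosomes, were not analysed here. AF, the fibrous outer ring of the disc, was dissected from the lumbar discs of 4 KO mice (labelled ABCC6KO, numbered 6, 7, 8 and 9) and 4 WT mice (ABCC6WT, numbered 1, 2, 3 and 5). All 8 were female and 7 months old, and the KO mice lacked *Abcc6* in every tissue. The discs of 1 mouse were pooled on 1 Mouse Clariom S array, so that mice are the replicates.

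The V-ATPase is a rotary motor that spends ATP to pump protons into lysosomes, endosomes and secretory vesicles. Its V1 sector on the cytosolic side binds and splits ATP, and its V0 sector in the membrane carries the protons. Several subunits exist as alternative forms, some of them made mainly in kidney, bone, neurons or testis. Cathepsins are the acid proteases that work at the resulting pH, most of them cysteine proteases, with *Ctsa* a serine and *Ctse* an aspartic enzyme. LAMP proteins line the lysosomal membrane. Many genes of the lysosome share a promoter element, the CLEAR element, which is bound by TFEB and its relatives and has CACGTG at its core.

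The CACGTG core was searched in the 27 members that have an entry in the RefSeq promoter table (GRCm38.p6, 250 bases before to 50 bases after the annotated start, the core reads the same on both strands). It stood in 8 of the 27 promoters (29.6%), against 8.09% of all 27025 promoters in the table. With T before and A after it on either strand, it stood in 4 (14.8%), against 1.12% of all promoters. The 8 genes were *Atp6v0b*, *Atp6v0d1*, *Atp6v0e*, *Atp6v1a*, *Ctsa*, *Ctsf*, *Ctsl* and *Lamp1*, and 30 bases around a site are shown for the 4 with the flanked core (the first of 2 sites in *Ctsa*), 5′ to 3′ on the strand of the gene with the core in capitals. *Lamp1* is added because it held 4 cores, none with both flanking bases, within 64 bases. The sites lie at chr8:105566050-105566079 (minus strand) for *Atp6v0d1*, chr17:26676387-26676416 (plus) for *Atp6v0e*, chr16:44139373-44139402 (minus) for *Atp6v1a*, chr2:164833749-164833778 (plus) for *Ctsa* and chr8:13159094-13159157 (plus) for *Lamp1*.
Atp6v0d1: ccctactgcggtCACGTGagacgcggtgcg
Atp6v0e: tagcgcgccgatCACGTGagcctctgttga
Atp6v1a: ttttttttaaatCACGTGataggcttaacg
Ctsa: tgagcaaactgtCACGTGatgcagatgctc
Lamp1: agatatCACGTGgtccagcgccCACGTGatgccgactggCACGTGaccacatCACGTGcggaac
A match describes the letters of this window and not a bound site.

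The arrays differed in how far control probe sets of unused sequence lay below those of expressed exons. The median of the 5222 negative controls ran from 5.40 to 6.0 log2 in KO mice and from 5.43 to 5.82 log2 in WT mice, and served as the background of each array. The control contrast, the median of the 1324 positive controls minus that background, was 2.99, 2.37, 4.30 and 2.85 log2 in KO mice 6, 7, 8 and 9, against 4.28, 3.17, 4.22 and 3.61 log2 in WT mice 1, 2, 3 and 5. *Abcc6* itself read above background in 1 of the 8 mice, KO mouse 6, so that its probe set checks no genotype. Of 16 AF markers, the collagens *Col1a1* and *Col1a2* and matrix genes *Acan*, *Chad* and *Dcn* were among those above background in all 8 mice. *Col2a1* was above it in 7 mice, *Thbs4* in 5, *Tnmd* in 4, *Mkx* in 1 and the tendon and AF transcription factor *Scx* in none. Neutrophil markers were also high, with all 14 measured above background in every mouse and a summed signal of 21.78 to 22.53 log2 in KO and 22.29 to 22.54 log2 in WT mice. By gene, 13 of the 14 were lower in KO mice, with a median of -0.46 log2 (*Elane* -1.53 log2). In such bulk tissue, fewer cells of a type and less RNA per cell cannot be told apart.

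Signal above background in all 8 mice was found for 26 of the 36 members, against 10614 of the 22206 probe sets. The 26 were 8 V1 subunits, 6 V0 subunits, 10 cathepsins, *Lamp1* and *Lamp2*. *Atp6v1g2* and *Ctsw* were above it in 7 mice. The other 8, *Atp6v1b1*, *Atp6v1c2*, *Atp6v1e2*, *Atp6v1g3*, *Atp6v0a4*, *Lamp3*, *Lamp5* and *Atp6v1fnb*, were above it in at most 2 mice. Apart from *Atp6v1fnb*, these are tissue-restricted forms of a pump subunit or of the LAMP family, and their values lie near the floor of the array. The median of the negative controls is a low bar. Their 95th percentile was 9.35 to 10.96 log2, and 9 of the 36 members exceeded it in all 8 mice, against 1311 of the 22206 probe sets. *Atp6v0a1* exceeded it in 1 KO and 3 WT mice. *Atp6v1a*, *Atp6v1h*, *Atp6v0a2*, *Atp6v0d1*, *Atp6v0e2*, *Ctsc*, *Ctso* and *Ctsw* did so in no mouse, and neither did the 8 members near the floor.

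**Figure D1:**
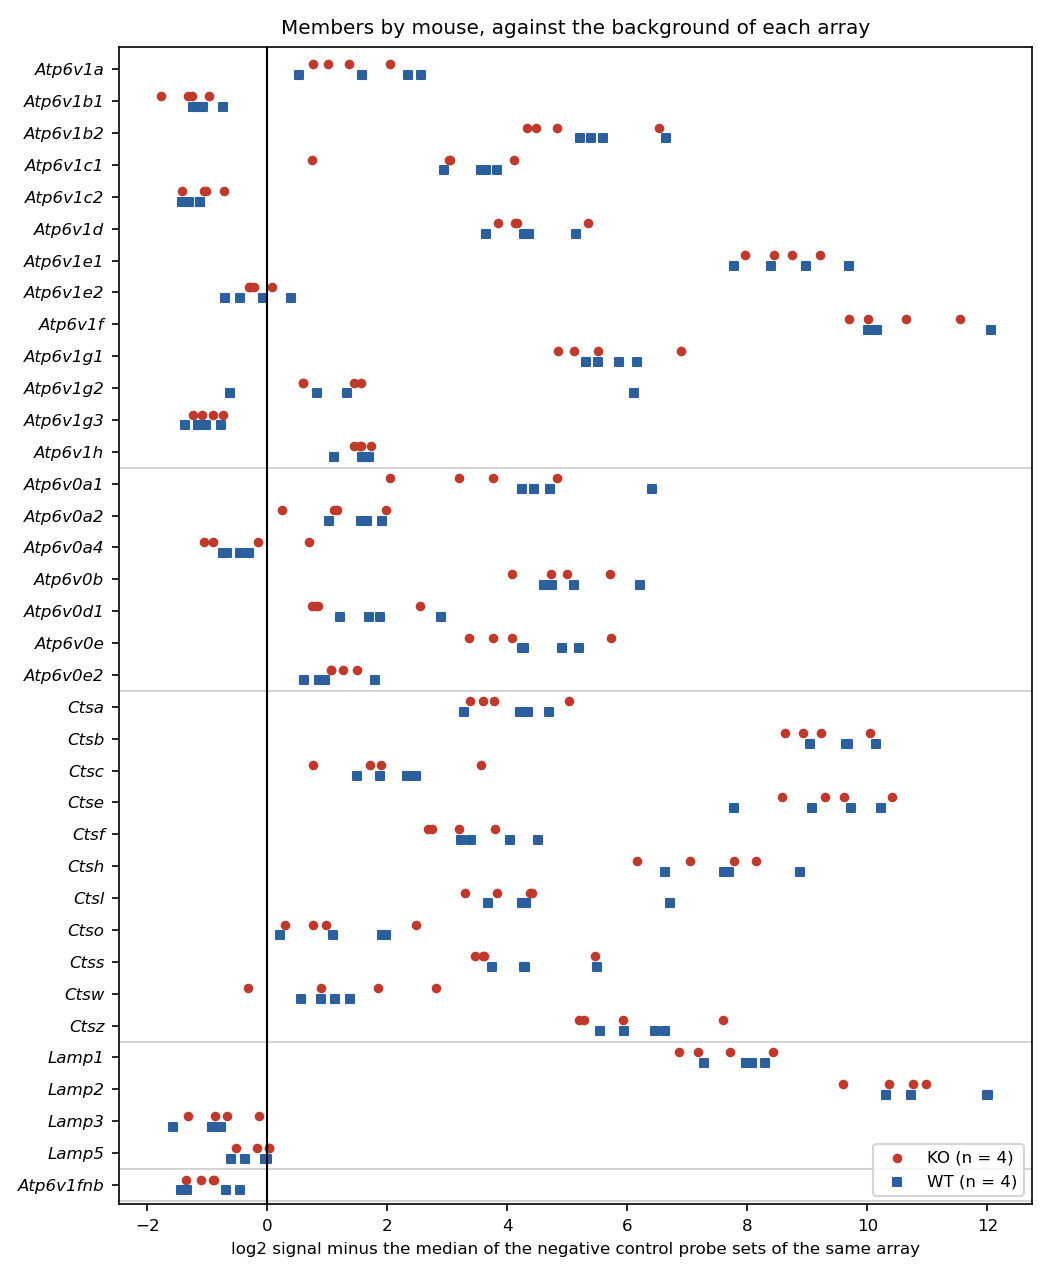
Signal of each of the 36 members in each mouse, as log2 above or below the negative control median of its own array (horizontal axis), with KO mice as red circles and WT mice as blue squares below them. The points of 26 members lie right of the background line at 0 in all 8 mice, and those of 8 members lie left of it in at least 6.

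No member passed the test between KO and WT mice after correction over all 22206 probe sets. The lowest adjusted p of a member was 0.848 (limma, Benjamini-Hochberg), and 0 of all probe sets had an adjusted p under 0.05. At the cutoff of the study's methods, unadjusted p of 0.01 and a 1.75-fold change, 0 of 36 members passed, against 0.725% of all probe sets (0.428% higher and 0.297% lower in KO mice). At an unadjusted p under 0.05, 1 member passed, *Atp6v0a1*, lower in KO mice, against 5.28% of all probe sets in either direction (2.82% higher and 2.46% lower). In 0 of 36 members did all KO mice lie on one side of all WT mice, against 2.53% of all probe sets (1.55% with KO mice higher and 0.973% lower). By sign, 20 members were lower and 16 higher in KO mice (55.6% lower, against 47.6% of all probe sets), with a median difference of -0.05 log2 (KO minus WT), against 0.03 log2 over all probe sets.

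The V0 sector held the member with the largest difference, while its other subunits differed by at most 0.55 log2. *Atp6v0a1* encodes an a subunit, which carries the proton path and steers the pump to its membrane, in a form prominent in neurons. It read 9.57, 9.19, 10.23 and 7.92 log2 in KO mice 6, 7, 8 and 9, against 11.83, 10.06, 10.35 and 10.10 log2 in WT mice 1, 2, 3 and 5. KO mice 6, 7 and 9 lay below all WT mice, and KO mouse 8 lay inside their range. The mean was 9.23 ± 0.97 log2 in KO mice and 10.59 ± 0.84 log2 in WT mice (SD, n = 4 each), a 2.57-fold lower signal. The difference was -1.36 log2 (standard error 0.54, adjusted p = 0.848 from limma), with an exact 2-sided permutation p of 0.0857. It was -1.35 log2 without KO mouse 7, -0.92 log2 without KO mouse 9 and -0.94 log2 without WT mouse 1, in all 3 cases with an unadjusted p above 0.05, and -1.69 log2 without KO mouse 8. With the control contrast of the array as a covariate it was -0.78 log2, again with an unadjusted p above 0.05.

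The a subunit has other forms that sit in other membranes. *Atp6v0a2*, the form of the Golgi and endosomes, read 6.97, 6.24, 7.37 and 6.99 log2 in KO mice, against 7.09, 6.85, 7.55 and 7.21 log2 in WT mice, with KO and WT ranges that overlap. Its difference was -0.28 log2 (standard error 0.31). *Atp6v0a4*, the form of kidney and inner ear, read 6.5, 5.09, 5.25 and 4.82 log2 in KO mice, against 5.12, 5.36, 4.89 and 4.98 log2 in WT mice. KO mouse 6 alone was above background, and without it the difference of 0.33 log2 was -0.04 log2. The a3 form, *Tcirg1*, carried by osteoclasts, differed by -0.04 log2.

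The other V0 subunits hold the ring and the stalk. *Atp6v0d1*, the stalk subunit found in most cells, was lower by -0.55 log2 in KO mice (standard error 0.39), and it read 6.65, 6.74, 7.93 and 6.68 log2 in KO mice, against 8.32, 7.03, 7.51 and 7.35 log2 in WT mice. KO mice 6, 7 and 9 lay below every WT mouse and KO mouse 8 above all but WT mouse 1, and without KO mouse 8 the difference was -0.86 log2. *Atp6v0e2*, an alternative e subunit, read 6.87, 7.25, 6.89 and 6.93 log2 in KO mice, against 7.23, 6.68, 6.26 and 6.62 log2 in WT mice (0.29 log2, standard error 0.28). *Atp6v0e*, the usual e subunit, and *Atp6v0b*, a ring proteolipid, differed by -0.29 and -0.16 log2. Over the V0 sector, 5 of 7 subunits were lower in KO mice, with a median of -0.28 log2.

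Among V1 subunits, 5 were lower and 8 higher in KO mice, with a median of 0.01 log2 and none at an unadjusted p under 0.05, against 2.46% of all probe sets called lower and 2.82% called higher. Subunits A and B form the ring that splits ATP. *Atp6v1a*, the catalytic subunit, differed by -0.33 log2 (standard error 0.40). The B subunit has a kidney form and a form of most cells. *Atp6v1b2*, the form of most cells, read 10.28, 10.33, 11.93 and 10.71 log2 in KO mice, against 12.08, 11.04, 11.23 and 11.06 log2 in WT mice (-0.54 log2, standard error 0.42). KO mice 6, 7 and 9 were again below all WT mice, KO mouse 8 was above all but WT mouse 1, and the difference was -0.91 log2 without KO mouse 8. *Atp6v1b1*, the kidney form, was at background in all 8 mice, with 4.55, 4.22, 4.42 and 4.56 log2 in KO mice, against 4.27, 5.08, 4.56 and 4.41 log2 in WT mice.

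Subunits C, E and G make the stalks that hold the ring in place. *Atp6v1c1*, whose C subunit comes off when the pump is taken apart, read 6.56, 9.02, 9.52 and 8.93 log2 in KO mice, against 9.07, 8.77, 9.21 and 9.48 log2 in WT mice. Only KO mouse 6 stood outside the WT range on the low side, and without it the difference of -0.62 log2 was 0.02 log2. Its alternative *Atp6v1c2* was at background, with 5.08, 4.57, 4.34 and 4.85 log2 in KO mice, against 4.31, 4.70, 4.33 and 4.24 log2 in WT mice (0.32 log2, standard error 0.27). *Atp6v1e1*, the E subunit of most cells, read 14.26, 13.95, 14.61 and 14.62 log2 in KO mice, against 15.12, 13.59, 14.62 and 14.05 log2 in WT mice, a difference of 0.01 log2. Its testis form *Atp6v1e2* read 5.52, 6.08, 5.17 and 5.57 log2 in KO mice, against 4.96, 6.21, 4.93 and 5.58 log2 in WT mice, and was above background in KO mouse 7 and WT mouse 2 alone. For both E subunits, all KO values lay inside the WT range.

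The 3 G subunits differ in where they are made. *Atp6v1g1*, the form of most cells, read 10.64, 11.50, 12.30 and 10.99 log2 in KO mice, against 11.58, 11.14, 11.15 and 11.52 log2 in WT mice (0.01 log2, standard error 0.37). *Atp6v1g2*, the brain form, read 7.25, 6.59, 6.96 and 6.48 log2 in KO mice, against 11.54, 5.19, 6.46 and 6.98 log2 in WT mice. WT mouse 1 stood far above all other mice, and the difference of -0.73 log2 (standard error 1.08) was 0.61 log2 without it. *Atp6v1g3*, the kidney form, was at background in every mouse, with 5.06, 5.09, 4.32 and 4.64 log2 in KO mice, against 4.66, 4.80, 4.27 and 4.50 log2 in WT mice. *Atp6v1d*, part of the rotor shaft, *Atp6v1f*, which joins it, and *Atp6v1h*, which silences the detached V1 sector, differed by 0.15, 0.02 and 0.21 log2. *Atp6v1fnb* was at background in all 8 mice and differed by 0.05 log2.

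**Figure D2:**
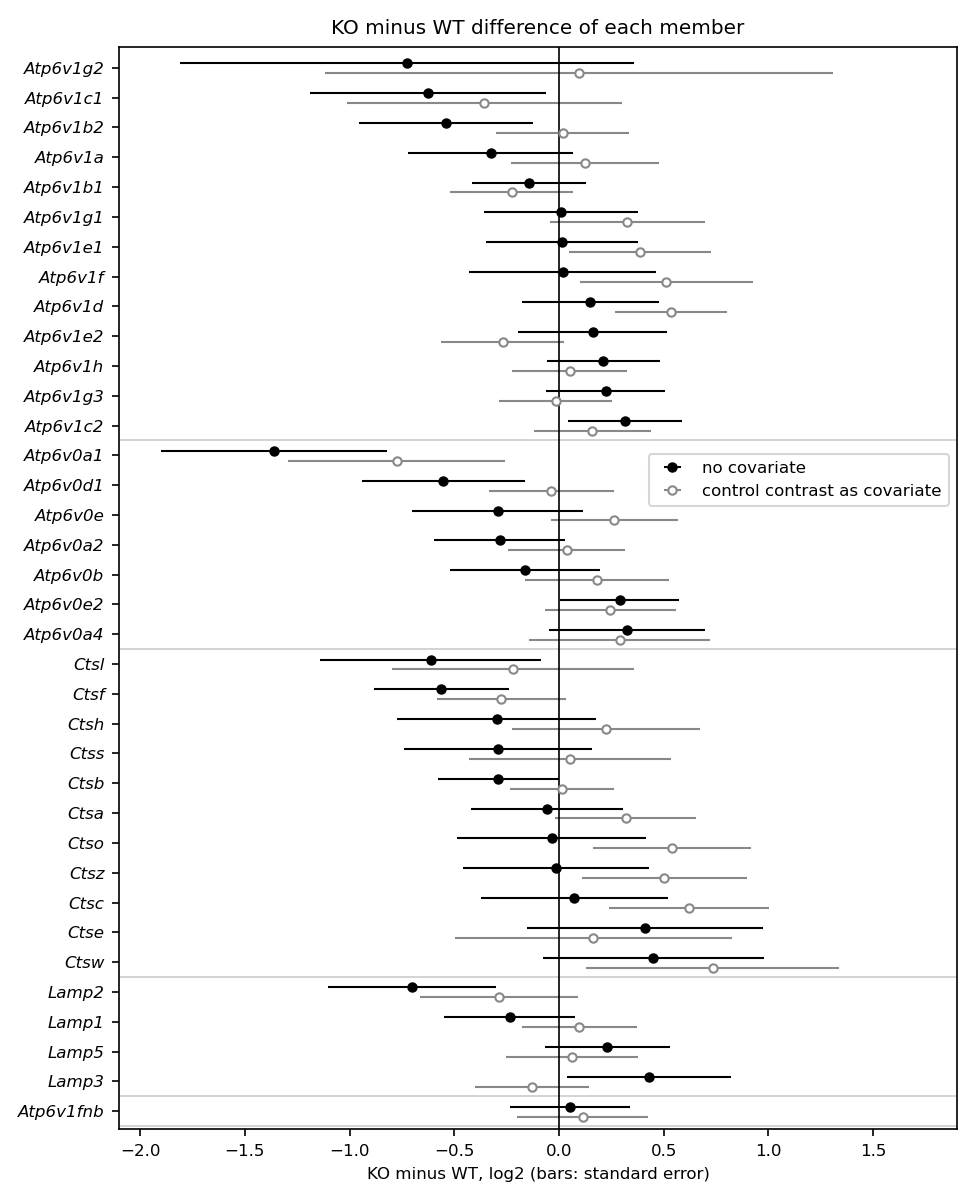
KO minus WT difference of each member on the log2 scale with its standard error, grouped from top to bottom into V1, V0, cathepsins, LAMP and *Atp6v1fnb*, in the fit without covariate (filled) and with the control contrast of each array as a covariate (open). *Atp6v0a1* has the lowest value in both fits, at -1.36 and -0.78 log2, and most members above background lie further right with the covariate.

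Of the 11 cathepsins, 8 were lower and 3 higher in KO mice, with a median of -0.06 log2 and none past the unadjusted threshold. *Ctsl* and *Ctsf*, both cysteine endopeptidases, had the largest decreases. *Ctsl* read 10.23, 9.29, 9.78 and 9.71 log2 in KO mice, against 12.13, 9.49, 9.95 and 9.89 log2 in WT mice. WT mouse 1 stood above all other mice, which overlapped, and the difference of -0.61 log2 (standard error 0.53) was -0.02 log2 without it. *Ctsf* read 9.0, 8.67, 9.19 and 8.62 log2 in KO mice, against 9.46, 9.06, 10.16 and 9.05 log2 in WT mice, a difference of -0.56 log2 (standard error 0.32). KO mice 6, 7 and 9 lay below all WT mice and KO mouse 8 inside their range, and the difference was -0.69 to -0.32 log2 with any 1 mouse left out. *Ctsh*, an aminopeptidase, read 13.59, 12.15, 13.54 and 12.92 log2 in KO mice, against 13.12, 12.46, 14.53 and 13.28 log2 in WT mice. Its difference of -0.30 log2 was less than the spread of either genotype.

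The 3 cathepsins that were higher in KO mice were *Ctsw*, *Ctse* and *Ctsc*, each by less than its standard error. *Ctsw*, a cathepsin of cytotoxic lymphocytes, read 5.48, 6.89, 8.21 and 7.73 log2 in KO mice, against 6.56, 6.71, 6.2 and 7.03 log2 in WT mice. KO mice 8 and 9 were above all WT mice and KO mouse 6 was below all of them and below background. The difference was 0.45 log2 (standard error 0.53), and 0.98 log2 without KO mouse 6, at an unadjusted p under 0.05 and an adjusted p of 0.945 (limma). The signal of *Ctsw* was low, above the 95th percentile of negative controls in no mouse. *Ctse*, made by erythrocytes and immune cells, read 14.39, 15.30, 15.81 and 15.48 log2 in KO mice, against 13.21, 16.04, 14.71 and 15.38 log2 in WT mice. Its lowest and highest values were both in WT mice, and the difference of 0.41 log2 was -0.13 log2 without WT mouse 1. *Ctsc*, the dipeptidase that activates granule proteases of neutrophils and lymphocytes, read 7.70, 6.75, 8.95 and 7.59 log2 in KO mice, against 7.30, 7.31, 7.96 and 8.14 log2 in WT mice (0.07 log2, standard error 0.45), a difference that was -0.33 log2 without KO mouse 8. The remaining cathepsins, *Ctsa*, *Ctsb*, *Ctso*, *Ctss* and *Ctsz*, differed by -0.29 to -0.01 log2, with *Ctss*, a protease of antigen-presenting cells, and *Ctsb*, an abundant lysosomal one, at -0.29 log2.

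*Lamp1* and *Lamp2*, the abundant proteins of the lysosomal membrane, were both lower in KO mice without passing the unadjusted threshold. *Lamp2*, which also serves chaperone-mediated autophagy, read 16.57, 15.59, 16.37 and 16.25 log2 in KO mice, against 17.42, 16.14, 17.65 and 16.38 log2 in WT mice. The mean was 16.20 ± 0.42 log2 in KO and 16.90 ± 0.75 log2 in WT mice (SD, n = 4 each), a difference of -0.70 log2 (standard error 0.40), and -0.96 log2 without WT mouse 2. WT mice 1 and 3 were above all KO mice, while WT mice 2 and 5 lay within their range. *Lamp1* read 13.51, 12.86, 13.82 and 13.05 log2 in KO mice, against 13.51, 13.10, 13.94 and 13.64 log2 in WT mice (-0.24 log2, standard error 0.31). *Lamp3* was at background in all 8 mice, with 5.14, 5.86, 4.08 and 5.0 log2 in KO mice, against 4.50, 5.05, 4.07 and 4.73 log2 in WT mice. *Lamp5*, a neuronal form, read 5.84, 5.48, 5.23 and 5.90 log2 in KO mice, against 5.04, 5.78, 5.64 and 5.05 log2 in WT mice, and was above background only in KO mice 6 and 9.

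Members above background tended to be high or low in the same mice, of either genotype. The mean deviation of the 26 members above background from their own 8-mouse mean was -0.31, -0.43, 0.51 and -0.24 log2 in KO mice 6, 7, 8 and 9, against 0.40, -0.28, 0.29 and 0.06 log2 in WT mice 1, 2, 3 and 5. KO mouse 8 thus lay with WT mice 1 and 3, and WT mouse 2 with the other KO mice. Among KO mice, KO mouse 8 was the highest in 20 of the 26 members (76.9%), against 49.0% of the 10614 probe sets above background. Among WT mice, WT mouse 2 was the lowest in 18 of 26 (69.2%), against 28.2% of those probe sets. The 8 members at background ran the other way, with KO mouse 8 the lowest KO mouse in 6 and WT mouse 2 the highest WT mouse in 7. Over all 22206 probe sets, these shares were 34.8% and 29.2%. Those shares include the probe sets above background, and the share over low probe sets alone was not taken. The control contrast was likewise highest in KO mouse 8, WT mouse 1 and WT mouse 3 and lowest in KO mouse 7, while among KO mice 6 and 9 and WT mouse 2 its order differed from that of the mean deviations.

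**Figure D3:**
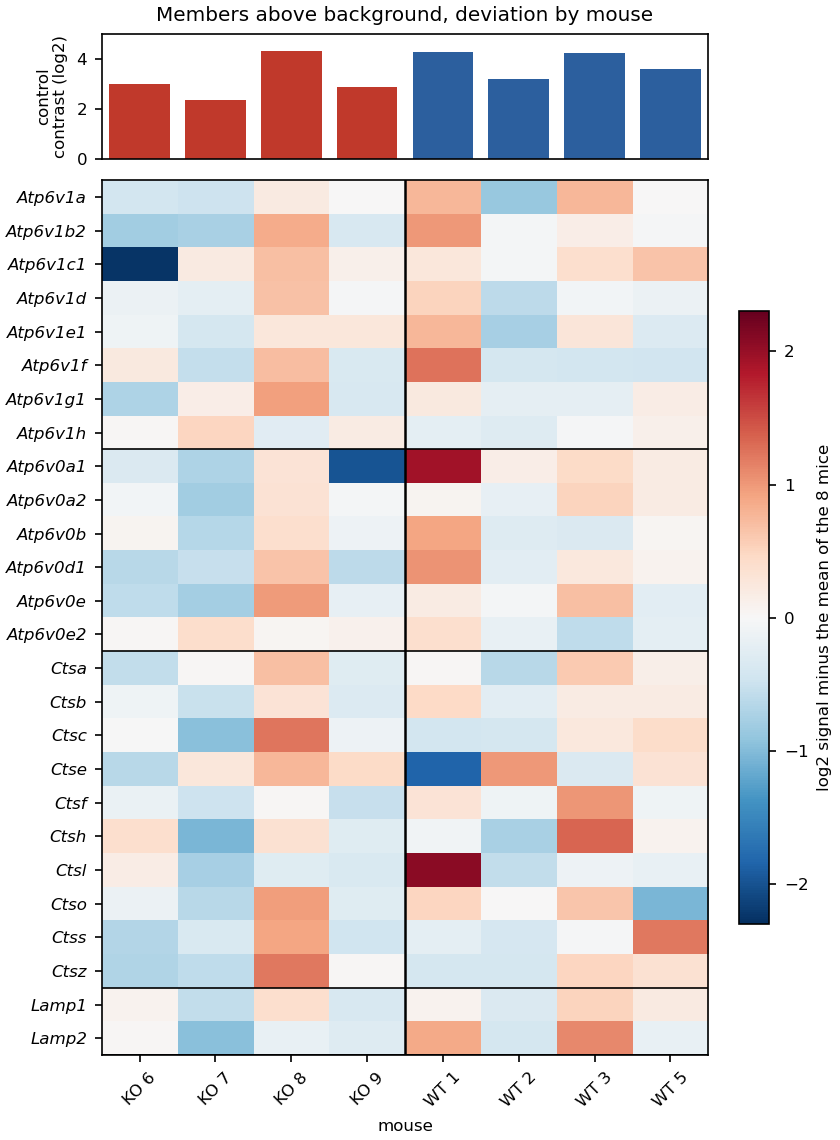
Control contrast of each array (log2, bars) above a map of the 26 members above background, coloured by the deviation of each mouse from the member's mean over the 8 mice (log2, red above and blue below), with KO mice left of WT mice. KO mouse 8 is mostly red, unlike the other KO mice, and WT mouse 2 is mostly blue, unlike the other WT mice.

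With the control contrast as a covariate, 23 of these 26 members had a positive slope on the contrast at equal genotype (88.5%), against 65.4% of all probe sets above background. The exceptions were *Atp6v1h*, *Atp6v0e2* and *Ctse*. The median KO minus WT difference of the 26, with 18 lower, was -0.26 log2 without the covariate, against -0.11 log2 for all probe sets above background, and 0.14 log2 with it, against -0.01 log2. The sign turned in 16 of all 36 members, from lower to higher in 13. No member then had an unadjusted p under 0.05. The contrast averaged 3.13 ± 0.83 log2 in KO mice and 3.82 ± 0.53 log2 in WT mice (SD, n = 4 each), and its part in the members' differences was not tested beyond this fit. The 10 members not above background in all mice were the reverse, 8 of them higher in KO mice with a median of 0.23 log2, where 62.8% of all 11592 such probe sets were higher, with a median of 0.12 log2. A positive slope on the contrast was found in 3 of the 10 and in 32.8% of the 11592, so low probe sets in general also ran against the contrast.

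The 8 members with CACGTG in the promoter were all above background, and all 8 were lower in KO mice, with differences of -0.61 to -0.06 log2 and a median of -0.31 log2, where 6255 of all 10614 probe sets above background were lower. Of the 10 members above background whose promoter held no core, 5 were lower, with a median of -0.00 log2. With the control contrast as a covariate the medians were 0.11 and 0.45 log2, with 3 of 8 and 2 of 10 lower. Members without a promoter entry are in neither group, and other genes with the core were not compared. The factors of this element showed no common direction. *Tfeb* read 6.18, 7.79, 6.68 and 7.68 log2 in KO mice, against 6.24, 6.67, 6.14 and 6.95 log2 in WT mice (0.58 log2, standard error 0.40). *Tfec* differed by 0.50 log2, *Mitf* by -0.33 log2 and *Tfe3* by -0.21 log2, and all 4 were above background in every mouse.

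In some members 1 mouse stood apart, and the same mouse was at the end of the range of a marker sum of another cell type, though not of every marker in it. WT mouse 1, highest in *Atp6v1g2*, *Ctsl* and *Atp6v0a1*, was the highest of the 8 mice in 6 of 7 measured Schwann cell and nerve markers, with a summed signal of 17.27 log2. This sum was 10.45 to 14.73 log2 in KO mice, and the remaining WT mice lay between 11.96 and 13.67 log2. Nearly all of it came from *Pmp22*, a myelin protein also made outside nerves, at 17.19 log2 in WT mouse 1, and the claudin *Cldn19* was above background in 1 mouse. The list was lower in KO mice in 6 of 7 genes (median -0.98 log2). *Mbp*, another myelin protein, reached the cutoff of the methods on the lower side, as did 0.297% of all probe sets. It read 6.19, 6.11, 7.27 and 6.09 log2 in KO mice, against 9.21, 7.99, 7.56 and 7.67 log2 in WT mice (-1.69 log2, adjusted p = 0.848 from limma). The same mouse had the highest summed signal of 10 skeletal muscle markers, 11.80 log2, with KO mice at 9.94 to 10.47 log2 and the remaining WT mice at 9.95 to 10.79 log2, and was the highest mouse in 5 of them. The muscle list was lower in KO mice in 6 of 10 genes (median -0.30 log2), 2 of them at an unadjusted p under 0.05, against 2.46% of all probe sets. These were the troponin *Tnnt3* (-1.40 log2, above background in 1 mouse), which also reached the cutoff of the methods, and the calcium pump *Atp2a1*. *Atp2a1* read 6.18, 6.5, 7.37 and 5.18 log2 in KO mice, against 11.04, 6.65, 9.81 and 6.91 log2 in WT mice. WT mouse 1 was also lowest in *Ctse* and in 5 of 6 erythroid markers, with a summed signal of 14.66 log2. KO mice lay between 16.18 and 17.40 log2 in this sum, and no remaining WT mouse was below 16 log2. All 6 erythroid markers were higher in KO mice (median 0.72 log2), and *Ctse* was 0.41 log2 higher. Of the 6, *Tspo2* alone was at an unadjusted p under 0.05 (1.23 log2), where 2.82% of all probe sets were higher at that p. The AF markers were lower in KO mice in 12 of 16 genes (median -0.21 log2). KO mouse 7, lowest in *Lamp1*, *Lamp2* and *Ctsh*, had the lowest AF sum, 20.07 log2, and was the lowest mouse in 7 of the 16. WT mouse 3, highest in the same members, had the highest AF sum, 21.3 log2, and was the highest mouse in 9.

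For *Ctsw* and *Ctsz* the lymphocyte and macrophage sums rested on a few genes of each list. KO mouse 6, lowest in *Ctsw*, had the lowest summed signal of 11 cytotoxic lymphocyte markers, 11.44 log2, but was the lowest mouse in 3 of the 11. *Nkg7*, a granule protein, carried the sum, with 8.45, 11.95, 13.56 and 11.78 log2 in KO mice, against 12.78, 11.26, 13.22 and 12.89 log2 in WT mice. *Klrd1*, a receptor of natural killer cells, was 6.63 log2 in KO mouse 6 and 4.95 to 6.48 log2 in WT mice, and perforin (*Prf1*) was at background in all 8. The sums of the remaining KO mice lay between 12.62 and 13.85 log2 and those of WT mice between 12.46 and 13.41 log2. More broadly, KO mouse 6 was the lowest mouse in 11 of 14 neutrophil markers, with the protease *Elane* at 15.05, 17.61, 19.15 and 17.92 log2 in KO mice, against 19.17, 17.77, 19.58 and 19.32 log2 in WT mice. With the neutrophil markers as a covariate, the difference of *Ctsw* was 1.04 log2, at an unadjusted p under 0.05, and that of *Atp6v1c1*, in which KO mouse 6 was also lowest, 0.12 log2 (adjusted p = 0.987 from limma for both). This covariate was the mean log2 signal of the list and not its sum. KO mouse 8, highest in *Ctsz*, a carboxypeptidase of myeloid cells, had the highest sum of 15 macrophage markers, 13.22 log2, but was the highest mouse in 6 of the 15. *C1qa*, a complement subunit, and *Csf1r*, the growth factor receptor of the lineage, were 11.74 and 11.32 log2 there, while *Mrc1*, the mannose receptor, was 9.92 log2 in KO mouse 8 and 10.31 to 11.24 log2 in WT mice. *Cd163* and *Marco* were at background in all 8. The sums of the remaining KO mice lay between 11.30 and 12.40 log2 and those of WT mice between 12.04 and 12.76 log2. KO mouse 8 was also the highest mouse in 8 of 12 osteoclast markers, with a summed signal of 17.61 log2, the remaining KO mice at 15.67 to 17.33 log2 and WT mice at 14.92 to 16.94 log2. This list, which holds *Ctsk* and *Atp6v0d2* themselves, was higher in KO mice in 9 of 12 genes (median 0.35 log2), none at an unadjusted p under 0.05. With the macrophage markers as a covariate, likewise the mean log2 signal of their list, the sign turned in 1 of the 36 members, and *Atp6v0a1* differed by -1.38 log2. All pairs and the markers named were chosen after the values were seen. The part of these cells in the members' differences was not tested beyond the neutrophil and macrophage covariates.

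**Figure D4:**
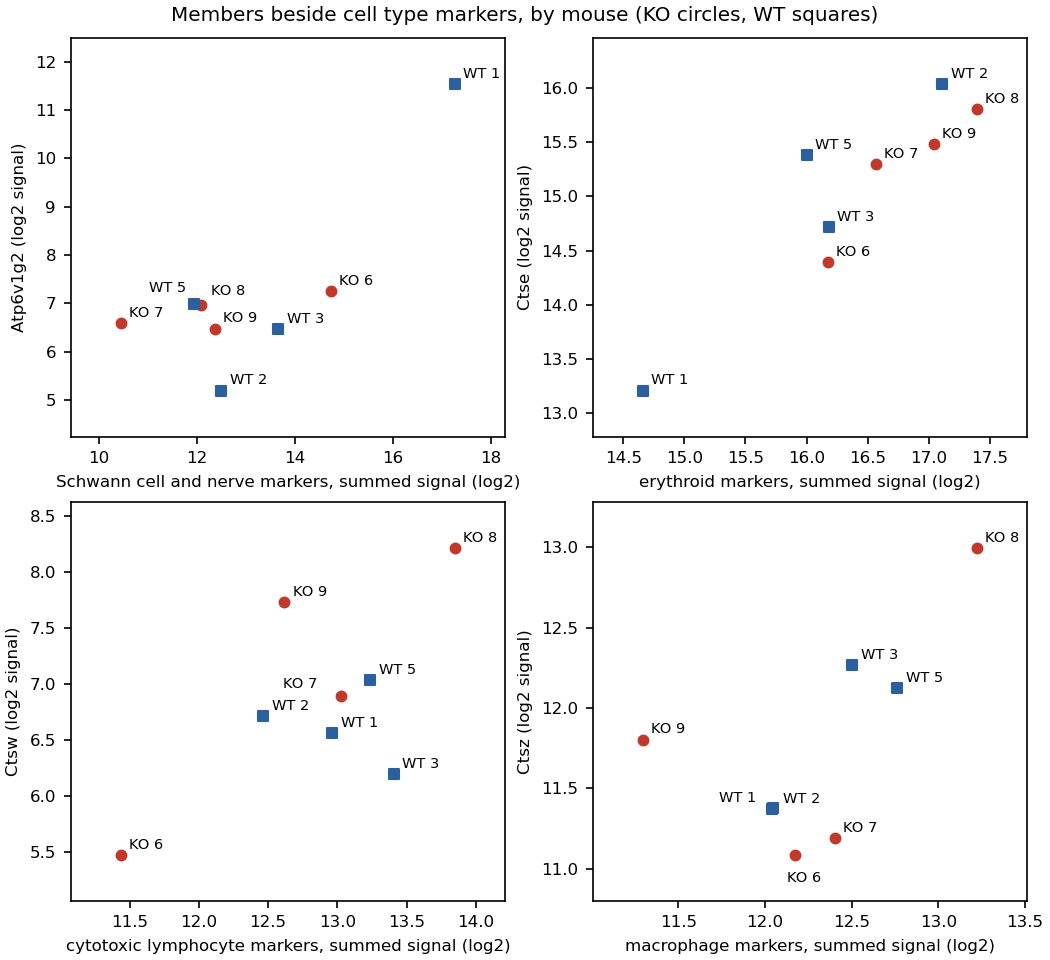
Signal of *Atp6v1g2*, *Ctse*, *Ctsw* and *Ctsz* in each mouse (log2, vertical axes) against the summed signal of Schwann cell and nerve, erythroid, cytotoxic lymphocyte and macrophage markers (log2, horizontal axes), KO mice as red circles and WT mice as blue squares. WT mouse 1 is far right in the nerve panel and far left in the erythroid panel, KO mouse 6 is lowest in the lymphocyte panel and KO mouse 8 is highest in the macrophage panel, both on sums that rest on a few genes.

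Lists of other lysosomal genes, not filtered on background, are set here against all probe sets above background. Of these, 58.9% were lower in KO mice, with a median of -0.11 log2. At an unadjusted p under 0.05, 407 of the 10614 probe sets above background were lower, and 2.46% of all 22206 probe sets. Of 16 accessory and assembly factors of the pump, 11 were lower (median -0.16 log2), 2 of them at an unadjusted p under 0.05. These were *Atp6ap2*, the prorenin receptor that belongs to the pump, and *Wdr7*, a partner of the assembly factor rabconnectin. *Atp6ap2* read 9.52, 8.37, 10.74 and 10.28 log2 in KO mice, against 10.95, 10.87, 11.38 and 10.74 log2 in WT mice (-1.26 log2, standard error 0.47), with KO mouse 8 level with the lowest WT mouse and the remaining KO mice below all WT mice. *Wdr7* read 7.22, 7.30, 7.16 and 7.20 log2 in KO mice, against 9.24, 7.6, 8.42 and 7.40 log2 in WT mice, with no overlap. All KO mice lay below all WT mice in 0.973% of all probe sets. *Dmxl2*, rabconnectin itself, differed by -0.62 log2, and *Atp6v0d2*, the osteoclast stalk subunit, by 0.78 log2. Leaving out KO mouse 6 gave a median of -0.06 log2, KO mouse 8 -0.28, KO mouse 9 -0.26 and WT mouse 3 -0.09 log2.

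Of 39 lysosomal hydrolases, 29 were lower (median -0.35 log2) and 2 passed, *Ggh*, which trims folate polyglutamates (-1.0 log2), and *Pla2g15*, a phospholipase (-0.83 log2). The sulfatases *Ids* and *Galns* differed by -1.64 and -0.95 log2 without passing. The median was -0.16 log2 without WT mouse 3 and -0.15 log2 without KO mouse 7. Lysosomal membrane proteins and activators were lower in 24 of 29 (median -0.23 log2, 0 passed), with *Sidt2* at -1.13, *Cln3* at -0.90, *Tpcn1* at -0.49 and *Npc1*, at background in all 8 mice, at -0.42 log2. Their median became -0.15 log2 when KO mouse 7 was left out, -0.42 log2 for KO mouse 8 and -0.13 log2 for WT mouse 3. Sorting genes were lower in 10 of 12 (median -0.37 log2, 0 passed), among them the mannose 6-phosphate receptor *M6pr* at -0.57 log2, *Sort1* at -0.83, *Sorl1* at -0.73 and *Gga2* at -0.59 log2. Of 15 genes of the mTORC1 scaffold on the lysosome, 11 were lower (median -0.38 log2) and 1 passed, *Flcn*, at -1.13 log2 (*Rptor* -0.8, *Rraga* -0.54, *Lamtor2* -0.43 log2). The median was -0.03 log2 without WT mouse 1 and -0.22 log2 without KO mouse 6 or KO mouse 9. With the control contrast as a covariate, the medians of these 5 lists lay between -0.11 and 0.03 log2.

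Inhibitors of cathepsins were mixed, with 6 of 14 lower (median 0.09 log2). The stefin *Stfa2* was 0.85 log2 and the cystatin *Cst10* 1.0 log2 higher at an unadjusted p under 0.05 (2.82% of all probe sets), although *Cst10* was at background in all 8 mice. Of 9 placental cathepsins, relatives of *Ctsl* that are known from the rodent placenta, 8 were higher in KO mice (median 0.87 log2), 3 at an unadjusted p under 0.05, against 2.82% of all probe sets, and 1, *Cts3*, at the cutoff of the methods, against 0.428%. *Cts3* read 7.23, 7.72, 6.35 and 7.45 log2 in KO mice, against 6.22, 6.14, 5.87 and 6.16 log2 in WT mice (1.09 log2, standard error 0.33, adjusted p = 0.848 from limma). Every KO mouse lay above every WT mouse, as in 1.55% of all probe sets. *Cts7*, *Ctsj* and *Ctsr* differed by 0.93, 1.03 and 0.87 log2. They are close copies of each other, and whether their probe sets tell them apart was not tested. The signals of all 9 were low, with none above the 95th percentile of negative controls in any mouse. *Cts8* was at background in all 8 mice, *Cts6* was above it in 2, and *Ctsq* and *Ctsll3* in 6. By sign, 62.8% of the 11592 probe sets not above background in all mice were higher in KO mice, and 11633 of all 22206. None of the 9 had a positive slope on the control contrast at equal genotype, and the median was 0.30 log2 with it as a covariate. *Ctsk*, the collagen-degrading cathepsin of osteoclasts, and *Ctsg*, of neutrophil granules, differed by 0.55 and -0.84 log2.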

How the data were processed

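AF tissue of 4 KO and 4 WT mice was measured on Mouse Clariom S arrays. The authors deposited log2 signal after sst-RMA, made with the Transcriptome Analysis Console, as 1 table of 28846 probe sets with 6640 controls, which were left out, and 0 sample columns were left out. Annotated symbols of all 36 members were found in RefSeq by gene identifier. The remaining 22206 probe sets were compared between KO and WT mice in 1 linear model per probe set (limma 3.58.1, R 4.3.3) without covariates, and p-values were adjusted by Benjamini-Hochberg over all of them. The table holds no detection p-values for the methods' filter, so a probe set was read against its array's negative control median. Exact 2-sided permutation tests used the 35 splits of the mice into 4 and 4.

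Members and lists were chosen with earlier results of these data known. All members are named, and values of every mouse are given for those past an unadjusted p of 0.05, the 3 largest increases and decreases of each class, and alternative subunits on either side of the background. Of other lysosomal lists, up to 4 genes with the smallest p are named. Markers of cell types were picked for naming with their values known. The fit was tested on simulated data. The alternatives are named with the results they changed, and the number of arrays limits the precision. A comparison of the protein sequences of alternative subunits was not made.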

Additional observations from a re-analysis of the deposited data

Results flagged for a closer look

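In 3 of the 72 groups of 4 mice (36 members, each in KO and in WT mice), 1 mouse stood apart from the others by more than Dixon's critical share of the range, which chance does in about 1 in 20 groups. *Atp6v0d1* read 7.93 log2 in KO mouse 8, while the remaining KO mice lay between 6.65 and 6.74 log2. *Atp6v0a1* read 11.83 log2 in WT mouse 1, while the remaining WT mice lay between 10.06 and 10.35 log2. *Atp6v1f* read 17.48 log2 in WT mouse 1, with the remaining WT mice between 15.80 and 15.83 log2.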

How the results depend on the processing

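No member reached the methods' cutoff after median centring or quantile normalization, with either filter on low signal, robust priors, array weights or any covariate, or with any 1 mouse left out (0 to 0), and 1 lower (*Atp6v0a1*) did when the p limit was 0.05. The count lower at an unadjusted p under 0.05 was 0 by the unpaired t-test and with the control contrast as a covariate, and 0 to 3 with 1 mouse left out. It was 0 without WT mouse 1, KO mouse 7 or KO mouse 9, 2 without WT mouse 2 (*Atp6v0a1*, *Lamp2*) and 3 without KO mouse 8 (*Atp6v1b2*, *Atp6v0a1*, *Atp6v0d1*). The count over all 22206 probe sets moved as well, from 546 lower in the main fit to 636 without WT mouse 1 and 763 without WT mouse 2. Without KO mouse 8, the 3 members had an adjusted p of 0.23 to 0.28 (limma), and the count over all probe sets is not given here. The count higher was 1 (*Ctsw*) with neutrophil markers as a covariate or without KO mouse 6, and 0 otherwise. With that covariate, 384 of all probe sets were higher at this p, against 626 in the main fit. The LAMP median was -0.47 log2 with either filter, under which *Lamp3* and *Lamp5* drop out. The V-ATPase median, -0.07 log2, was -0.28 log2 with the filter at the negative control median, 0.056 with quantile normalization and 0.11 with the contrast. The cathepsin median, -0.06 log2, was -0.29 log2 with the filter at the 95th percentile, -0.31 with array weights, 0.22 with the contrast and 0.11 with neutrophil markers. With 1 mouse left out, the medians ran from -0.074 to 0.076 log2 for LAMP, -0.26 to 0.10 log2 for the V-ATPase and -0.42 to 0.13 log2 for the cathepsins.

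Signs of single members turned as follows, the cause not tested. The control contrast turned 16 of 36 members, giving 0.12 log2 for *Atp6v1a*, 0.18 for *Atp6v0b*, 0.26 for *Atp6v0e*, 0.32 for *Ctsa*, 0.013 for *Ctsb*, 0.54 for *Ctso*, 0.051 for *Ctss*, 0.5 for *Ctsz*, 0.036 for *Atp6v0a2*, 0.018 for *Atp6v1b2*, -0.27 for *Atp6v1e2*, 0.095 for *Atp6v1g2*, -0.016 for *Atp6v1g3*, 0.22 for *Ctsh*, 0.097 for *Lamp1* and -0.13 for *Lamp3*. Quantile normalization turned 4, median centring 3, array weights 3, macrophage markers 1, neutrophil markers 7 and single left-out mice 4 to 7 of the 36. Of members described with every mouse's value, median centring gave -0.036 log2 for *Atp6v1e1* and -0.041 for *Atp6v1g1*, array weights -0.19 for *Atp6v1g1* and -0.26 for *Ctsc*, macrophage markers -0.0096 for *Atp6v1g1*, and neutrophil markers -0.046 for *Atp6v0a4* and 0.12 for *Atp6v1c1*. With 1 mouse left out, the range was -0.037 to 0.52 log2 for *Atp6v0a4*, -0.25 to 0.021 for *Atp6v1b1*, -0.96 to 0.024 for *Atp6v1c1*, -0.24 to 0.27 for *Atp6v1e1*, -0.0037 to 0.42 for *Atp6v1e2*, -0.31 to 0.25 for *Atp6v1g1*, -1.51 to 0.61 for *Atp6v1g2*, -0.33 to 0.40 for *Ctsc*, -0.13 to 0.81 for *Ctse* and -0.59 to 0.098 for *Ctsh*.

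No paired analysis was possible because the mouse numbers differ between KO and WT mice. For the other lysosomal lists, the covariate and left-out mice were chosen after seeing the data. With the contrast, their medians moved to -0.0082 log2 for the mTORC1 scaffold and 0.30 log2 for the placental cathepsins.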
